A study of Chlamydomonas reinhardtii with 18 samples.

Results

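Nitrite was compared with no nitrite after 3 h in the green alga *Chlamydomonas reinhardtii*. Cultures of strain 6145c that had received 10 mM nitrite gave 3 libraries, and cultures without added nitrite gave another 3. These 6 libraries were taken by their labels from the 18 of the series, and 13564 of 17766 features had enough reads to be tested. Both arms were kept in darkness at 25 °C, and each arm consisted of 3 growth flasks that were sampled 15 min, 3 h and 24 h after the addition. The 3 libraries of a group therefore come from separate cultures, while libraries of different times come from the same flasks. The carbon and nitrogen sources of the medium are unknown from the sources used here.

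Algae take up nitrite and reduce it to ammonium in the chloroplast, and the ammonium is built into glutamine and glutamate. Part of the nitrite can instead be reduced to nitric oxide, a reactive signal molecule that hemoglobins and other proteins remove. In *C. reinhardtii* a cytochrome P450 and flavodiiron proteins can reduce nitric oxide further to nitrous oxide, the gas named in the title of the study.

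The polyadenylated RNA of each culture was sequenced, and the deposited values are counts of reads per gene. The nitrite libraries of 3 h held 7669176, 8384913 and 7881760 reads over genes, and the control libraries 7207173, 7915971 and 6695500. Levels are given as CPM, the reads of a gene as a share of the reads of its library, brought to the same fixed total for every library. The libraries were also scaled to each other. A change in the RNA of 1 gene cannot be told apart from the opposite change in the rest of the RNA. Some libraries stood apart from their groups. On the second principal component of all 18 libraries, which held 12.5% of the variance, the library labelled nitrite 3 h number 2 lay at 46.2, against -13.4 and -15.6 for the other nitrite libraries of that time. The library labelled nitrite 15 min number 2 lay at -12.4, against 43.4 and 42.5 in its group. Both libraries numbered 2 thus lay nearer to the nitrite libraries of the other time than to their own, and whether the 2 were exchanged was not tested. Reads that aligned to several places were 36.5% of the library labelled control 3 h number 3, against 16.7% to 21.1% of the other libraries of 3 h, and its scaling factor of 0.6045 was the lowest of these 6. All libraries were kept under their labels, and results that change without these 3 are given both ways.

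**Figure D1:**
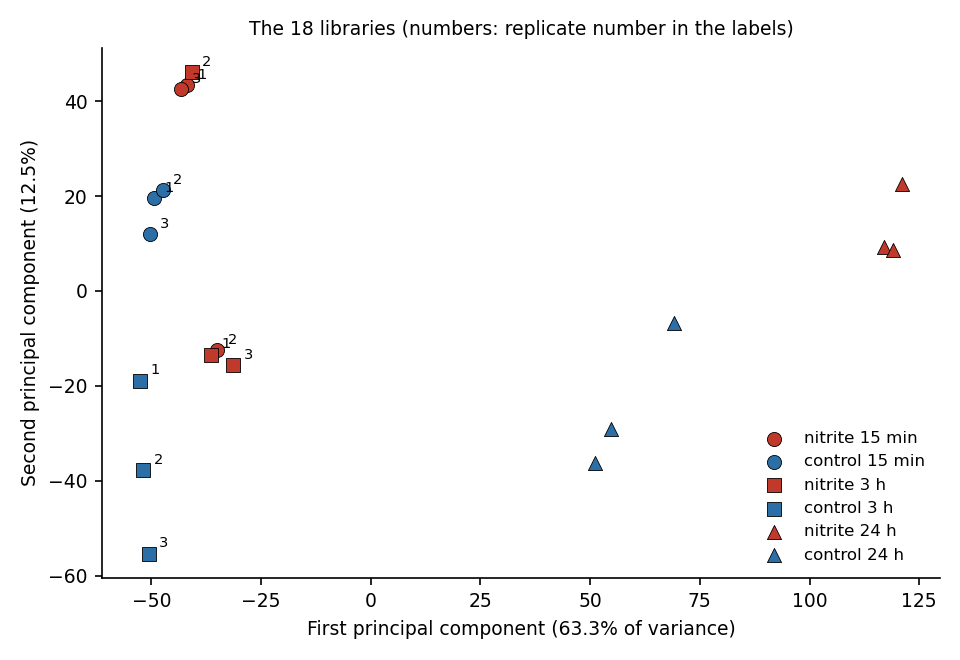
Principal components of the 18 libraries, from log2 CPM of the tested features. The horizontal axis is the first component (63.3% of the variance), the vertical axis the second (12.5%). Red marks are nitrite and blue marks control libraries, circles stand for 15 min, squares for 3 h and triangles for 24 h, and numbers beside the marks of 15 min and 3 h are the replicate numbers. The square of nitrite number 2 lies among the red circles, and the red circle of number 2 lies among the red squares.

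At 3 h, 265 genes were higher and 105 were lower with nitrite at an adjusted p under 0.05, together 2.73% of the features tested (1.95% higher, 0.774% lower). The test was the quasi-likelihood F test of edgeR over all 18 libraries, with Benjamini-Hochberg adjustment over all features. Rose, fell and called are used below of genes that passed. Among the higher genes the median log2 fold change was 1.04, and 155 of them differed at least 2-fold. The median of the lower genes was -0.87, and 33 of them differed at least 2-fold. A typical gene that rose had 21.6 CPM in the nitrite and 10.8 CPM in the control libraries, and one that fell had 11.2 CPM in the nitrite and 20.5 CPM in the control libraries, both as medians over genes of the group means. Over all features tested these medians were 7.07 CPM and 7.14 CPM. The libraries of the 2 groups did not overlap in 263 of the higher and 103 of the lower genes, against 22.8% of all features. The same libraries made the calls, so this describes the calls and does not add to them. Without the 3 libraries that stand apart, 232 genes were called (1.69%), 132 higher and 100 lower. Of these, 130 were also called with all libraries. Leaving out only nitrite 3 h number 2 and control 3 h number 3 gave 13, though both fits compare the same libraries of 3 h. A fit of only the 6 libraries of 3 h gave 5. With 1 library of 3 h left out the count ran from 7 to 1387. Without scaling factors the median log2 fold change of all features was 0.29, against -0.02 with them.

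**Figure D2:**
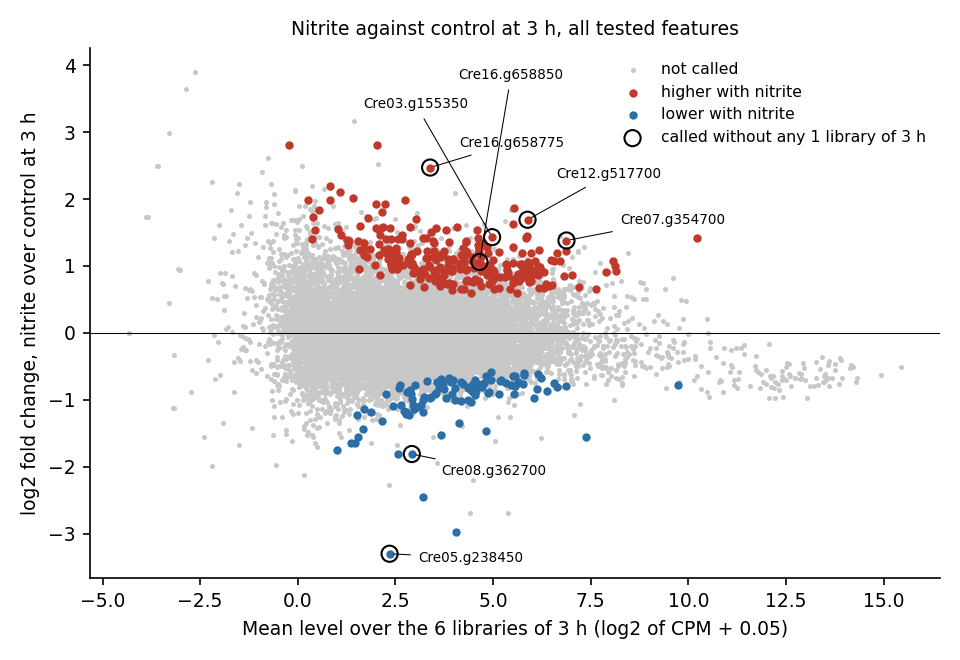
Log2 fold change of nitrite over control at 3 h (vertical axis) against the mean level over the 6 libraries of 3 h (horizontal axis, log2 of CPM with 0.05 added) for the 13564 features tested. Red points are the 265 features higher with nitrite, blue points the 105 lower and grey points those not called. Rings mark the 7 genes called whichever library of 3 h was left out.

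Which calls held was asked by leaving out each library of 3 h in turn, and 7 genes, chosen after their values were seen, were called in all 6 of these fits. The fit without control 3 h number 2 called only these 7, so the other fits did not narrow the set further. The files and the reference gene table pair no identifier with a name or product, so these genes are described by position and level. The clearest was Cre12.g517700 (chromosome 12, 4072806 to 4077413). It had 93.0, 83 and 93.8 CPM in the nitrite libraries, against 26.2, 27.3 and 30.2 CPM in the control libraries. The lowest nitrite library was thus far above the highest control library, and the log2 fold change was 1.69 (edgeR adjusted p = 1.7e-05, SE 0.17). The same gene had already risen at 15 min, with 75.6 ± 9.18 CPM in nitrite and 33.2 ± 2.05 CPM in control libraries (SD, n = 3 each; edgeR adjusted p = 0.00228). At 24 h it had 525 ± 12.7 CPM in nitrite and 157 ± 21.8 CPM in control libraries, so both arms had gone up while their log2 fold change was 1.74.

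Cre03.g155350 (chromosome 3, 1927266 to 1932452) showed a like course. Its levels at 3 h were 56.5, 41.1 and 40.0 CPM with nitrite, against 18.5, 17 and 15.3 CPM without. The groups did not overlap, and the log2 fold change of 1.43 (edgeR adjusted p = 0.000815, SE 0.19) stood between those of 1.58 at 15 min and 1.70 at 24 h, all past the test. In Cre07.g354700 (chromosome 7, 6016746 to 6020657) the nitrite libraries of 3 h held 158, 203 and 149 CPM, against 63.9, 60.8 and 71.4 CPM in the control libraries. Here too no library of one group reached the other, with a log2 fold change of 1.38 (edgeR adjusted p = 0.00183, SE 0.20). At 15 min its fold change was 0.75, which did not pass with all libraries (edgeR adjusted p = 0.32) but did without the 3 that stand apart (0.75, edgeR adjusted p = 0.0279), and at 24 h it was 1.62, which passed.

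Another pair of these genes lay close together on chromosome 16. Cre16.g658775 (2229039 to 2232710) had 17.5, 20.2 and 14.7 CPM in the nitrite libraries of 3 h, against 3.25, 1.42 and 5.44 CPM in the control libraries. Its log2 fold change of 2.47 (edgeR adjusted p = 0.000683, SE 0.31) was the highest of the 7. Its nitrite libraries held 16.5 ± 1.23 CPM at 15 min and 17.5 ± 2.75 CPM at 3 h. Its control libraries held 9.34 ± 1.62 CPM at 15 min and 3.37 ± 2.01 CPM at 3 h, a log2 difference of -1.55 (edgeR adjusted p = 0.0314). The log2 difference between these times without the 3 libraries that stand apart was -0.02 in the nitrite arm (edgeR adjusted p = 0.961) and -1.92 in the control arm (edgeR adjusted p = 0.00049). Cre16.g658850 (2235853 to 2239608), 3142 bases further along with 1 gene between them, had 31.3, 36.2 and 34.5 CPM with nitrite, against 16.1, 18.6 and 13.8 CPM without. Its groups did not overlap either, and it was higher by 1.06 (edgeR adjusted p = 0.00709, SE 0.18). Its call was lost with only the 6 libraries of 3 h in the fit (edgeR adjusted p = 0.139), as were those of Cre03.g155350 and Cre07.g354700 (0.0636 each). The call of Cre16.g658850 was also lost without nitrite 3 h number 2 and control 3 h number 3 (0.93, edgeR adjusted p = 0.0708). At 15 min this gene differed by 0.77, which did not pass with all libraries (edgeR adjusted p = 0.199). Without the 3 that stand apart it passed there (0.88, edgeR adjusted p = 0.0023).

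The remaining 2 of the 7 fell. Cre05.g238450 (chromosome 5, 3012894 to 3018335) had 0.429, 1.34 and 0.988 CPM with nitrite, against 11, 8.36 and 8.16 CPM without. Even the highest nitrite library held a small part of the lowest control level, and the log2 fold change was -3.30 (edgeR adjusted p = 0.00137, SE 0.45), on 26 reads with nitrite and 197 without. Its neighbour Cre05.g238400 (3008696 to 3012405) had 3.00, 4.12 and 4.07 CPM with nitrite, against 28.1, 34.3 and 26.2 CPM without, and differed by -2.98 on the log2 scale (edgeR adjusted p = 0.0176, SE 0.55). These were the largest falls by the rule for named genes, but the call of Cre05.g238400 was lost without the 3 libraries that stand apart (-3.13, edgeR adjusted p = 0.0909). Cre08.g362700 (chromosome 8, 1143611 to 1147255) had 2.89, 3.54 and 3.46 CPM with nitrite, against 10.8, 10.8 and 13.6 CPM without. It fell by 1.81 (log2, edgeR adjusted p = 0.00183, SE 0.26), and it was also lower at 24 h, at 1.88 ± 0.567 CPM with nitrite and 3.51 ± 0.261 CPM without (edgeR adjusted p = 0.0439). At 15 min it differed by -1.22, which did not pass with all libraries (edgeR adjusted p = 0.0991). Without the 3 that stand apart it passed there (-1.09, edgeR adjusted p = 0.0163).

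**Figure D3:**
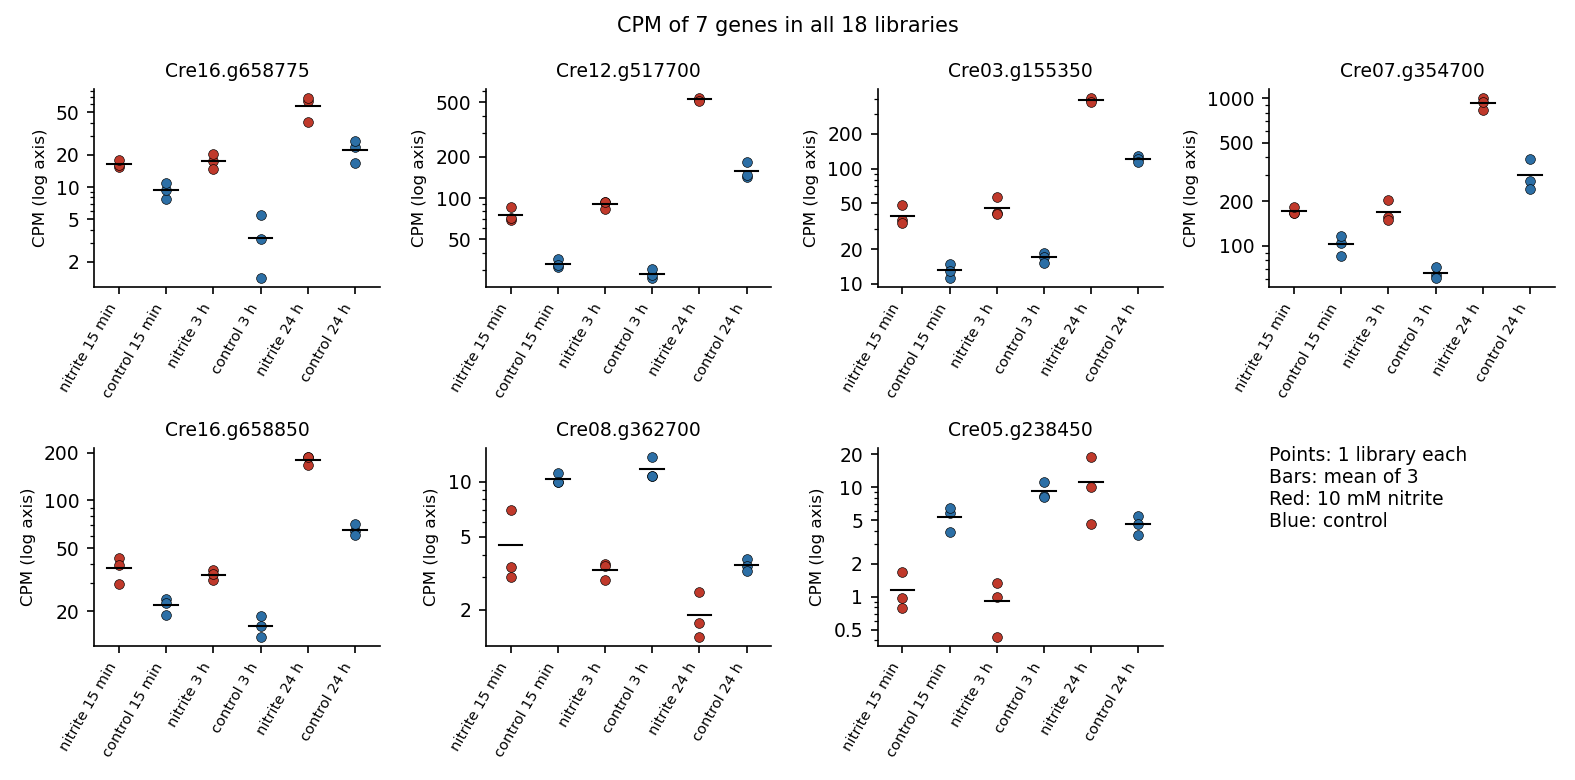
CPM (log axis, its range set for each gene) of the 7 genes that were called at 3 h with any 1 library of 3 h left out. Each point is 1 library and each bar the mean of 3, red with nitrite and blue without, and groups run from 15 min to 24 h. At 3 h the red and blue points are apart in every panel. In Cre05.g238450 the order of the groups at 24 h, 11.1 CPM with nitrite and 4.59 CPM without, is opposite to that at 3 h.

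The largest rises by the named-gene rule, both 2.80 on the log2 scale, were in genes of low level. Cre13.g605404 (chromosome 13, 4845472 to 4848143) had 4.61, 12.9 and 3.21 CPM with nitrite, against 0.735, 0.85 and 1.73 CPM without (edgeR adjusted p = 0.0378, SE 0.68). Nitrite number 2 was the highest of these libraries, and without the 3 libraries that stand apart the gene did not pass (2.32, edgeR adjusted p = 0.0972). Its call held in 7 of 17 alternative fits. It was also lost with only the 6 libraries of 3 h (edgeR adjusted p = 0.139) and without any 1 control library of 3 h (0.0639 to 0.16). Cre01.g022950 (chromosome 1, 3573010 to 3576065) had 1.5, 1.44 and 1.36 CPM with nitrite, against 0.21, 0.283 and 0 CPM without. Those levels rest on 40 reads with nitrite and 4 without (edgeR adjusted p = 0.0115, SE 0.52), and the call held without the 3 libraries (edgeR adjusted p = 0.0279). The call was lost with only the 6 libraries of 3 h (edgeR adjusted p = 0.144) and without control 3 h number 2 (0.0753). Leaving out only nitrite 3 h number 2 and control 3 h number 3 also lost it (edgeR adjusted p = 0.0816).

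Genes that rose and genes that fell differed in length. The gene span, the distance from start to end of a gene model with its introns, had a median of 6518 bases in the higher genes and 3322 bases in the lower genes, against 4687 bases in all tested genes with a span. When the tested genes were divided by span into 5 equal groups, the median log2 fold change was -0.28 in the shortest, then -0.15, -0.04 and 0.06, and 0.25 in the longest. The shortest group held 34 higher and 43 lower genes, and the longest 90 higher and 2 lower genes. Single libraries went with this gradient. In control 3 h number 3 the median deviation from the mean of the 6 libraries was 0.39 in the shortest group and -0.35 in the longest, and in nitrite 3 h number 2 it was -0.22 and 0.23.

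Without the 3 libraries that stand apart, the medians over the 5 groups were -0.08, -0.05, -0.02, 0.01 and 0.10. The median spans of the called genes were then 4360 bases for the 132 higher and 4303 bases for the 100 lower genes. After a correction of each library for gene span, an alternative chosen after seeing the data, 307 genes were called and 226 of them were among the 370. The corrected calls still differed by span, with 51 higher and 5 lower genes in the shortest group and 29 higher and 23 lower genes in the longest. With both changes 300 were called, 138 of them among the 370. Each of the 7 genes above was called in these 3 fits. The part of RNA or library quality in the gradient was not tested.

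**Figure D4:**
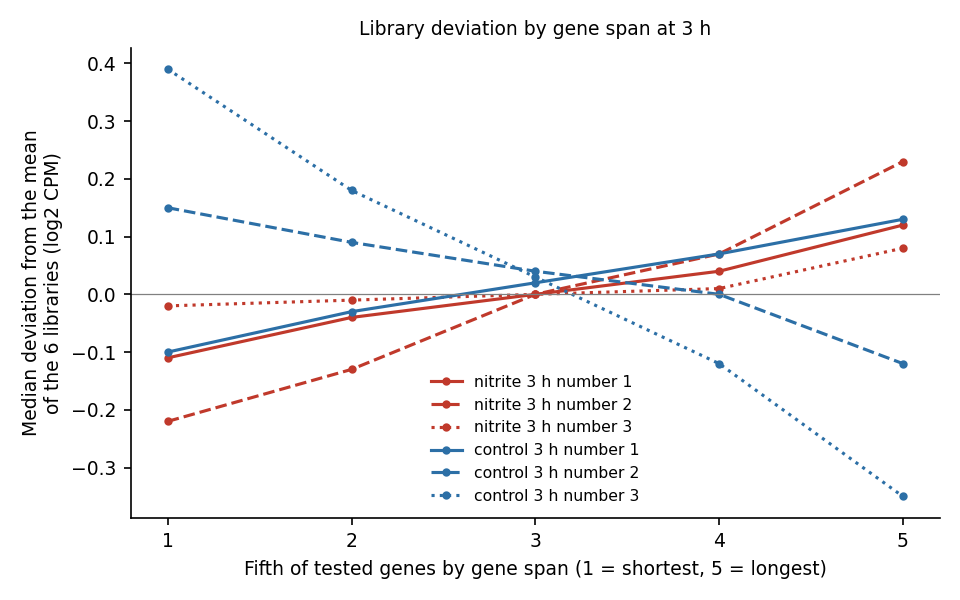
Median deviation of each library of 3 h from the mean of the 6 (log2 CPM, vertical axis) in 5 equal groups of tested genes by gene span (horizontal axis, 1 the shortest). Red lines are nitrite and blue lines control libraries. Control number 3 runs from 0.39 down to -0.35, the steepest line, and nitrite number 2 from -0.22 up to 0.23, while nitrite number 3 stays between -0.02 and 0.08.

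The genes called at 3 h were next followed at the other times. The libraries of those times come from the same flasks and were in the same fit, so they are not independent of the calls. A lasting difference between the flasks of the 2 arms cannot be told apart from an effect of nitrite here. At 15 min, in libraries that the call at 3 h did not compare, 255 of the 265 higher genes (96.2%) had a positive log2 fold change, with a median of 0.47, against 52% of all tested features and a median of 0.02. At 15 min 3 of the 265 (1.13%) were called, against 0.0295% of all features. Of the 105 lower genes, 82 (78.1%) were negative at 15 min, with a median of -0.25, against 48% of all. Without the 3 libraries that stand apart, 1 of which is a nitrite library of 15 min, 122 of the then 132 higher genes were positive at 15 min, against 44.9% of all features, and 26 (19.7%) were called, against 2.22%. Of the then 100 lower genes 66 were negative, against 55% of all.

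At 24 h, with all libraries, 253 of the 265 higher genes (95.5%) were positive, against 46.8% of all features, with a median of 1.04. Of the 265, 193 were called higher at 24 h and 1 lower, together 73.2%, against 29.4% of all features. The lower genes had a median of -0.64 at 24 h, against -0.05 for all features, and 52 of the 105 were called lower and 7 higher, together 56.2%.

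Set against 15 min in the same arm, the genes that rose were nearly level in the nitrite libraries of 3 h, with a median of 0.01, and lower in the control libraries, with a median of -0.57. The genes that fell had medians of -0.10 in the nitrite arm and 0.53 in the control arm. Both pairs of values include the libraries of 3 h that made the calls, so they describe the calls and do not add to them. They also rest on which libraries stand under each time: between 3 h and 15 min edgeR called 0 genes in the nitrite arm with all libraries (197 at an unadjusted p under 0.05) and 2865 (20.9%) without the 3 that stand apart, and in the control arm 171 (1.26%) and 1645 (12%). Without the 3 libraries that stand apart, the 132 higher genes gave 0.12 in the nitrite arm and -0.45 in the control arm. For the 100 lower genes the arms changed places, with -0.72 in the nitrite arm and 0.12 in the control arm.

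The test of the difference between effects asks directly whether the response at 3 h differed from that at another time. Its main fit treated libraries of the same flask as independent. A fit with a term for the flask, taken from the replicate number, called 0 genes between 3 h and 15 min and 646 between 3 h and 24 h. In the main fit between 3 h and 15 min, 0 genes passed in edgeR (lowest adjusted p = 0.107) and 814 had an unadjusted p under 0.05. DESeq2, another count model, called 3. With the 3 libraries that stand apart left out edgeR called 12. Between 3 h and 24 h, 750 genes differed (5.53% of those tested), 335 with the more positive effect at 3 h and 415 with the more negative. Of the 750, 702 (93.6%) were called at 24 h, against 29.4% of all features, and 31 (4.13%) at 3 h, against 2.73%. The libraries behind these calls are also those of the difference, so the shares are a description.

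The largest of these differences include the lower neighbours on chromosome 5. Cre05.g238400 changed order: at 24 h it had 59.0, 17.9 and 7.40 CPM with nitrite, against 3.92, 6.22 and 4.22 CPM without, and its effect at 3 h minus that at 24 h was -5.52 (edgeR adjusted p = 0.000688, SE 0.77). For Cre05.g238450 the difference was -4.56 (edgeR adjusted p = 0.000142, SE 0.59). The other large negative difference, -4.78 (edgeR adjusted p = 0.0179, SE 1.16), was that of Cre16.g674602 (chromosome 16, 6292279 to 6293735). This gene was near absent at 3 h, with 2 reads in the nitrite and 7 in the control libraries, and had 6.46, 6.82 and 5.19 CPM with nitrite at 24 h, against 0.653, 0.249 and 1.77 CPM without.

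The largest positive differences came from genes that were low with nitrite at 24 h. Cre07.g327650 (chromosome 7, 2262876 to 2271391) had 3.32, 13.2 and 6.05 CPM with nitrite at 3 h, against 4.62, 3.40 and 3.46 CPM without, so that the groups overlapped. At 24 h it was down to 2 reads in the nitrite libraries, against 28 in the control libraries, and the fitted difference of 4.23 (edgeR adjusted p = 0.031, SE 1.12) rests on those few reads. Cre08.g358560 (chromosome 8, 270990 to 278300) had 11.1, 30.4 and 9.63 CPM with nitrite at 3 h, against 24.5, 21.4 and 16.1 CPM without, and the nitrite libraries lay on both sides of the control libraries. At 24 h it had 0.538, 0.682 and 0.945 CPM with nitrite, against 24.7, 20.1 and 4.09 CPM without, which gave a difference of 4.18 (edgeR adjusted p = 0.0182, SE 0.96).

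Some of the called genes were direct neighbours. Of the 367 called genes placed on the 17 chromosomes, 26 (7.08%) lay in 12 runs of adjoining genes called in the same direction, 10 runs higher and 2 lower. Of the 14 gaps in these runs, 10 were under 200 bases. How many runs would arise among genes drawn at random was not tested, and the usual gap between adjoining genes was not measured. Whether called genes cluster is therefore not known. Of the 26 genes, 16 stayed called without the 3 libraries, against 130 of all 370 called genes. The 2 runs of 3 genes, named after their values were seen, were both higher with nitrite. On chromosome 6 between 7678550 and 7689181, Cre06.g301750, Cre06.g301800 and Cre06.g301802 were higher by 0.73, 1.23 and 1.31 on the log2 scale, with gaps of 48 and 58 bases. On chromosome 14 between 3468485 and 3477496, Cre14.g630775, Cre14.g630787 and Cre14.g630799 were higher by 1.18, 1.14 and 1.53. These 6 genes kept their calls without the 3 libraries. All 6 lost them with only the 6 libraries of 3 h (edgeR adjusted p = 0.139 to 0.191) and without control 3 h number 2 (0.0774 to 0.173). All but Cre14.g630799 also lost them when only nitrite 3 h number 2 and control 3 h number 3 were left out. That fit compares the same libraries of 3 h as the fit without the 3 libraries. Whether the counting used the strand of the reads is unknown from the sources used here.

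Known pathways were followed through 15 lists of 128 nuclear loci, entered from prior knowledge of this alga, an assignment that the files cannot check. Of these, 113 loci had enough reads, and 2 rose and 1 fell. That share of 2.65% is close to the 2.73% of all features. None of the 3 passed without the 3 libraries that stand apart, where 4 other members were called lower. Those 4 calls were absent when only the 2 libraries of 3 h among them were left out, at the same fold changes.

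The list for nitrate and nitrite uptake and reduction, the steps that bring the added ion into the cell and turn it into ammonium, held 9 loci, of which 6 were tested and 0 called. Its median log2 fold change was -0.37, or -0.06 without scaling, where the median of all features was 0.29. The most abundant member, Cre09.g410700 (chromosome 9, 6972202 to 6977667), had 96.5, 73.0 and 91.1 CPM with nitrite, against 118, 133 and 109 CPM without. No library of one group reached the other, but the fold change of -0.47 (edgeR adjusted p = 0.129, SE 0.18) did not pass. At 24 h this gene was at 7.63 ± 1.96 CPM with nitrite and 20.4 ± 3.10 CPM without, and the effects at 3 h and 24 h differed by 0.96 (edgeR adjusted p = 0.0399, SE 0.27). Nearby on the same chromosome, Cre09.g410800 (6986662 to 6990589) had 2.57, 0.574 and 2.22 CPM with nitrite, against 6.4, 4.53 and 5.44 CPM without. Its fold change of -1.64 (edgeR adjusted p = 0.0513, SE 0.44) came nearest to a call in this list, with no overlap, on 48 reads with nitrite and 115 without.

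Cre09.g410900 (6995340 to 6997448) was rarer still, at 0.858, 0 and 0.37 CPM with nitrite, against 1.99, 2.13 and 0.989 CPM without (-2.13, edgeR adjusted p = 0.162, SE 0.87). Its groups did not overlap, on 11 reads with nitrite and 38 without. These 3 loci on chromosome 9 were all lower with nitrite but none passed. Cre09.g396000 (1821982 to 1827398) differed the other way, at 0.643, 1.91 and 0.494 CPM with nitrite, against 0.315, 0.283 and 0 CPM without (2.07, edgeR adjusted p = 0.109, SE 0.74). Its groups did not overlap, on 30 reads with nitrite, 20 of them in number 2, and 5 without, and the fold change was 0.90 without the 3 libraries that stand apart (edgeR adjusted p = 0.624). Cre03.g177700 (chromosome 3) differed within the control group more than between groups, with 9.11, 7.56 and 10.4 CPM with nitrite, against 11.3, 5.95 and 0.247 CPM without. In Cre09.g389089 the ranges overlapped, at 0.741 to 1.05 CPM in nitrite libraries against 0.84 to 1.48 CPM in control libraries. Among the 3 members with too few reads to test, Cre09.g410750 had 4 reads with nitrite and 20 without at 3 h.

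Loci for flavodiiron proteins, truncated hemoglobins and a P450-type nitric oxide reductase, all of which bind or reduce nitric oxide, made up the nitric oxide list. All 6 were tested, 0 were called, and the median was -0.11, which became 0.21 without scaling. Cre01.g007950 (chromosome 1, 1533342 to 1539057) had 462, 694 and 457 CPM with nitrite, against 386, 375 and 379 CPM without. The groups did not overlap, yet the fold change of 0.50 (edgeR adjusted p = 0.196, SE 0.23) did not pass, and it was 0.28 without the 3 libraries that stand apart, among them the one at 694 CPM. Cre14.g615400 (chromosome 14, 1130388 to 1132606) was level, at 136, 141 and 178 CPM with nitrite and 153, 158 and 168 CPM without. Its neighbour Cre14.g615350 (1125856 to 1128338) turned on 1 library, with 40.8, 9.86 and 39.1 CPM with nitrite, against 49.1, 57.4 and 51.2 CPM without (-0.82, SE 0.54). The same nitrite library was low in Cre12.g531900, at 7.29, 1.91 and 6.42 CPM with nitrite, against 7.24, 8.78 and 9.39 CPM without. Cre04.g218800 and Cre16.g691800 lay within 28.3 to 33.7 CPM in nitrite libraries and 22.5 to 38.0 CPM in control libraries, with fold changes of -0.15 (SE 0.17) and -0.01 (SE 0.19).

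The glyoxylate list holds the loci entered for isocitrate lyase and malate synthase, the enzymes that let cells grow on acetate by sparing its carbon from oxidation. Cre03.g144807 (chromosome 3, 356536 to 361981) had 141, 176 and 186 CPM with nitrite, against 86.7, 95.4 and 93.9 CPM without. It rose by 0.86 (log2; edgeR adjusted p = 0.0414, SE 0.22), with no overlap, and differed by 0.85 without the 3 libraries that stand apart (edgeR adjusted p = 0.0738). Cre06.g282800 (chromosome 6, 5284370 to 5288359) had 784, 1110 and 1082 CPM with nitrite, against 476, 586 and 622 CPM without. It did not pass (0.82, edgeR adjusted p = 0.0728, SE 0.25), but its fold change was also the same size, 0.82, without the 3 libraries. Both loci thus stood apart by group, as did 22.8% of all features, and kept their size of difference in the reduced fit, though without a call there. The call of Cre03.g144807 held in 7 of 17 alternative fits. It was lost, among others, with only the 6 libraries of 3 h (edgeR adjusted p = 0.167) and without nitrite 3 h number 2 (edgeR adjusted p = 0.116).

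Related steps, the activation of acetate and the making of sugars from it, were entered in a list of 5 loci. All 5 had positive fold changes, from 0.40 to 0.76 with a median of 0.66, and 0 were called. Cre07.g353450 (chromosome 7, 5822819 to 5829894) had the lowest p of these, at 479, 696 and 597 CPM with nitrite, against 397, 399 and 322 CPM without (0.66, edgeR adjusted p = 0.0807, SE 0.21). Nitrite number 2 was the highest library in each of the 5, and without the 3 libraries that stand apart the median was 0.25. In the fermentation list, entered for enzymes that cells without oxygen use, all 8 tested loci were positive with a median of 0.75 and 0 calls. There too nitrite number 2 was the highest library in each of the 8, and the median without the 3 libraries was -0.14, so the direction of that list turned.

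**Figure D5:**
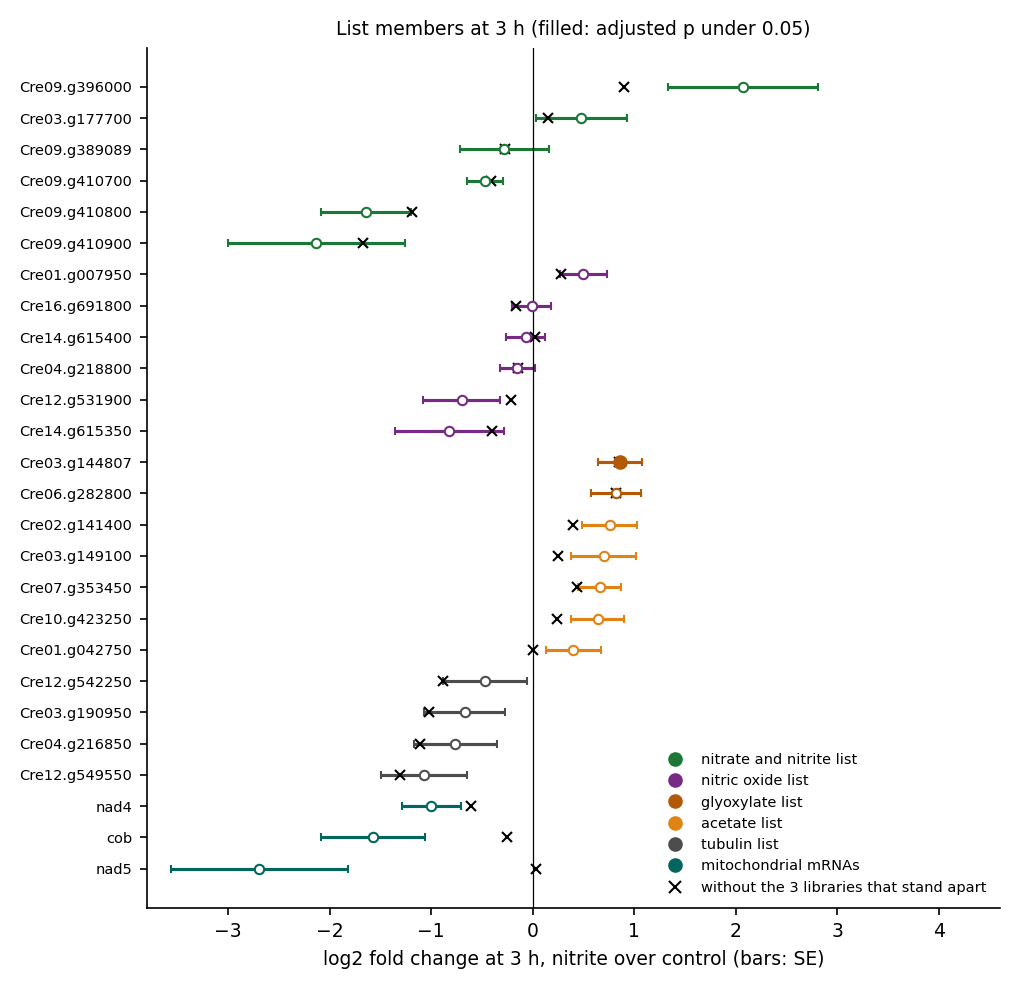
Log2 fold change of nitrite over control at 3 h (horizontal axis, bars SE) for all tested members of 5 lists and the mitochondrial mRNAs, 1 locus per line. Filled points passed the test over all features and open points did not. Crosses are the values without the 3 libraries that stand apart. The glyoxylate pair has crosses on its points, at 0.85 and 0.82, the crosses of the tubulin loci lie further down, and those of *cob* and *nad5* lie near 0.

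Tubulins, the building blocks of microtubules and flagella, had fold changes from -1.07 to -0.47 at the 4 loci, with a median of -0.71 and 0 calls. The groups did not overlap at 1 of these loci, against 22.8% of all features. Cre12.g549550 (chromosome 12, 8332995 to 8335438) had 87.9, 144 and 56.4 CPM with nitrite, against 173, 186 and 250 CPM without, and did not overlap (-1.07, edgeR adjusted p = 0.142, SE 0.42). Cre03.g190950 (chromosome 3, 6017519 to 6019856) had 163, 365 and 128 CPM with nitrite, against 274, 317 and 454 CPM without. Cre04.g216850 (chromosome 4, 144030 to 147635) had 92.0, 209 and 68.0 CPM with nitrite, against 170, 177 and 279 CPM without. In both, nitrite number 2 lay among the control libraries. In Cre12.g542250 (chromosome 12, 9167628 to 9170277) it lay above them, with 48.7, 101 and 41.5 CPM with nitrite, against 79.7, 87.1 and 98.9 CPM without. When the 3 libraries that stand apart were left out the median was -1.06, and Cre03.g190950 (-1.02, edgeR adjusted p = 0.0185) and Cre04.g216850 (-1.11, edgeR adjusted p = 0.0109) fell past the test. With the library of 15 min kept and only the other 2 left out, they had the same fold changes and did not pass (edgeR adjusted p = 0.3 and 0.266). Without scaling the median was -0.27.

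Chaperones, which help proteins fold and are made in heat and other stress, gave 0 calls among 14 tested loci, with a median of -0.17 (0.14 without scaling). In the fit without the 3 libraries 2 fell. Cre08.g372100 (chromosome 8, 2518227 to 2522077) had 57.2, 102 and 69.5 CPM with nitrite, against 144, 139 and 116 CPM without, with no overlap. Its fold change was -0.81 with all libraries (edgeR adjusted p = 0.0733, SE 0.25) and -1.15 without the 3 (edgeR adjusted p = 0.00293). Cre09.g386750 gave -0.84 there (edgeR adjusted p = 0.0497) and -0.01 with all libraries, where nitrite number 2 held 85.0 CPM beside 28.5 and 29.9 CPM. Neither passed with only the 2 libraries of 3 h left out (edgeR adjusted p = 0.0816 and 0.509).

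The other calls among the lists were 1 each in sulfur assimilation and carbon dioxide. Cre10.g445000 (chromosome 10, 3489763 to 3495854), of the sulfur list, had 19.5, 17.8 and 17.2 CPM with nitrite, against 12.1, 9.21 and 11.1 CPM without. It rose by 0.75 (edgeR adjusted p = 0.0377, SE 0.19), and without the 3 libraries it differed by 0.78 (edgeR adjusted p = 0.0536). The next gene, Cre10.g445050, which starts at 3495903 and is in the same list, averaged 54.6 ± 10.7 CPM in nitrite and 45.2 ± 4.6 CPM in control libraries and did not pass. From the list for carbon dioxide uptake and hydration, Cre04.g223050 (chromosome 4, 2656608 to 2661032) had 21.8, 11.9 and 11.5 CPM with nitrite, against 41.7, 39.2 and 44.2 CPM without. It fell by 1.47 (edgeR adjusted p = 0.0448, SE 0.38), and without the 3 libraries it differed by -1.27 (edgeR adjusted p = 0.26). The next locus of that list on the chromosome, Cre04.g223100, which starts at 2662125, had 12.5, 3.35 and 4.45 CPM with nitrite, against 5.77, 4.96 and 3.21 CPM without, and its groups overlapped.

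Of the lists without a call, the ammonium and glutamate list had a median of 0.09 over 7 tested loci, or -0.23 without the 3 libraries that stand apart. Its Cre05.g232150 (chromosome 5, 592684 to 598768) had 312, 810 and 355 CPM with nitrite, against 205, 223 and 218 CPM without (1.19, edgeR adjusted p = 0.0556, SE 0.34), and 0.64 without the 3 libraries. The alternative oxidases, which pass electrons to oxygen and bypass part of the respiratory chain, gave 1.56 (edgeR adjusted p = 0.083, SE 0.51) for Cre03.g169550, on 49 reads with nitrite and 12 without, and -0.22 for Cre09.g395950. Enzymes that remove peroxides and superoxide had a median of -0.16 over 14 loci, and those of the Calvin cycle, which fixes carbon dioxide, -0.26 over 14 loci. Without scaling both medians were positive, at 0.22 and 0.09, which is below the median of all features. The 20 light-harvesting loci had a median of 0.14, or -0.13 without the 3 libraries, and 0 of the 3 photoprotection loci had enough reads.

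The mitochondrial mRNAs, all but 1 of which (*rtl*) encode subunits of the respiratory chain, were named in the files and followed after their values had been seen. Of 8, 3 were tested and 0 called. *cob*, for apocytochrome b of complex III, had 41.8, 30.5 and 38.9 CPM with nitrite, against 29.2, 67.9 and 238 CPM without (-1.57, edgeR adjusted p = 0.0906, SE 0.51). For *nad5*, a subunit of complex I, the values were 9, 3.64 and 3.58 CPM with nitrite, against 3.46, 9.49 and 97.1 CPM without. *nad4*, another subunit of complex I, had 176, 184 and 186 CPM with nitrite, against 175, 380 and 540 CPM without (-1.0, edgeR adjusted p = 0.0583, SE 0.29). In all 3 the control libraries were widely spread, control number 3 was the highest and control number 1 lay near or below the nitrite libraries. Without the 3 libraries that stand apart, *cob* differed by -0.25, *nad4* by -0.61 and *nad5* by 0.03. The part of RNA quality in this spread was not tested.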

How the data were processed

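The deposited tables, 1 per library, hold counts: whole numbers of reads per gene that the authors had not normalised. TopHat2 2.0.13 and HTSeq are named per the submitters' processing notes. The build, strand setting and handling of multiple alignments are unknown from the sources used here. Each table ends with 5 summary lines, which were left out: in the libraries of 3 h, reads outside genes made up 0.892% to 1.47% of all reads, ambiguous reads 0.0597% to 0.32% and reads with several alignments 16.7% to 36.5%. Genes that overlap or have near-identical copies are therefore uncertain. Of 17741 nuclear identifiers, 17738 matched locus tags of a RefSeq gene table (assembly Chlamydomonas_reinhardtii_v5.5) that gave coordinates and holds 0 gene symbols. Planned protein families were not used, since no protein table was at hand.

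Features were kept by edgeR's filterByExpr (minimum count 10, 4202 removed), libraries were scaled by TMM (factors 0.604 to 1.437 over all libraries) and tested with edgeR 4.0.16 in R 4.3.3 (robust quasi-likelihood F test, 1 mean per group, 12 residual degrees of freedom). SE, the standard error of a log2 fold change, is its size over the square root of F. Alternatives used DESeq2 1.42.0, limma 3.58.1 and the settings given in the closing section. All 6 pairs of libraries within the groups of 3 h differed by more than sampling noise (chi-square per degree of freedom 7.53 to 62), so each counted once. Replicate numbers showed no pairing of the arms at 3 h: same-numbered libraries correlated in their deviations at -0.00462, -0.0586 and 0.0758. Libraries of unlike number correlated at -0.156 to 0.11. With 3 libraries per arm these values cannot exclude a pairing. The rule for named genes took at most 2 unannotated genes in each direction by size among those called, non-overlapping and at a mean log2 CPM of 1 or more, all tested members of the nitrate, nitric oxide, glyoxylate and tubulin lists, called members of the other lists, and the 2 largest in each direction per test of a difference. The comparison, the lists and the alternatives were chosen with earlier results of these data known, and other genes are named after their values were seen.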

Additional observations from a re-analysis of the deposited data

Results flagged for a closer look

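By the edgeR test of the difference, the effects of nitrite at 3 h and 24 h were unlike in 750 genes. The largest differences, effect at 3 h minus effect at 24 h on the log2 scale, were 4.23 for Cre07.g327650 and 4.18 for Cre08.g358560, and -5.52 for Cre05.g238400, -4.78 for Cre16.g674602 and -4.56 for Cre05.g238450. Among the list members, the difference was 0.96 for Cre09.g410700 of the nitrate and nitrite list. It was 1.47 for Cre10.g445050 of the sulfur list (edgeR adjusted p = 0.00343), whose nitrite libraries of 24 h held 4.86 ± 0.952 CPM and whose control libraries held 11.2 ± 0.409 CPM. For Cre03.g145787 of the chaperone list it was -1.87 (edgeR adjusted p = 0.0143), with 202 ± 9.51 CPM in nitrite and 48.1 ± 16.8 CPM in control libraries at 24 h. Cre10.g456750 of the oxidative stress list differed by -1.37 (edgeR adjusted p = 0.0159) and Cre08.g380250 of the Calvin cycle list by -1.46 (edgeR adjusted p = 0.0143). For the mitochondrial mRNA *nad4* the difference was -1.41 (edgeR adjusted p = 0.0492). The control libraries of 3 h were widely spread in *nad4*, and its effect at 3 h was smaller without the 3 libraries that stand apart.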

How the results depend on the processing

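The count of 370 genes was 395 with relative log expression factors, 341 without a filter, 384 with limma-voom and 307 or 300 with the gene span correction (all libraries or without the 3 that stand apart). It was 69 without scaling, 933 with DESeq2, 232 without the 3 libraries, 5 with only the 6 libraries of 3 h and 13 without only nitrite 3 h number 2 and control 3 h number 3, a choice made after seeing the data. With 1 library left out it ran from 7 (without control number 2) to 1387 (without control number 1); without nitrite number 1 or 2 it was 212 or 40, and without control number 3 it was 69. A replicate block gave 198, but the numbers did not pair the arms. Of the calls 71.6% were higher, against 95.7% without scaling and 56.9% without the 3 libraries.

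For 3 h against 15 min, 0 genes became 3 with DESeq2, 12 without the 3 libraries and 38 with the span correction added, and 0 to 4 with 1 library left out (4 without control number 1). For 3 h against 24 h, 750 became 1131 without scaling, 1337 without the 3 libraries and 1570 with the span correction added, and ran from 471 (without control number 2) to 1160 (without control number 1). The flask as replicate block gave 646. The 3 list calls became 1 without scaling or with the replicate block, 13 with DESeq2, 5 with limma-voom or the span correction without the 3 libraries, and 0 with only the 6 libraries or without nitrite number 2 and control number 3; with 1 library left out they ran from 0 to 7. No direction of a called result reversed. Over 153 genes and 2559 recomputed values, 2077 kept their direction and side of the threshold, 212 lost a call, 38 gained one and 232, called in neither setting, changed sign. The cause of these shifts was not tested, and levels under about 1 CPM rest on few reads.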
